A study of Mus musculus with 6 samples.

Results

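The genes described here are the chemokines and their receptors in the corpus, the main gland-bearing region of the stomach, in C57BL/6 mice. They were picked by name from the expression table: Ccl and Cxcl ligands, Ccr and Cxcr receptors, the fractalkine and lymphotactin ligand-receptor pairs, and the atypical receptors Ackr1 to Ackr4. There were 58 such genes among 18988 rows, of which 36 encode ligands, 18 conventional receptors and 4 atypical receptors. RNA sequencing was done on 6 mice, 1 mouse per library. The control group was Ras;APC FF (replicates 1 to 3), and the other group was PGC;Ras;APC FF (replicates 4 to 6), so that the controls also carried the Ras and APC FF alleles and the groups differ by the PGC component. What PGC and FF stand for is not written in the labels, nor are age, sex or any schedule of induction. The series is about gastric cancer induced in the corpus, and the comparison asks how gene expression in the corpus differs when PGC is added to Ras;APC FF.

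Chemokines are small secreted proteins that guide the migration of leukocytes by binding G protein-coupled receptors, and they are named CC, CXC, C or CX3C after the spacing of their N-terminal cysteines. Inflammatory chemokines are switched on by cytokines and by the transcription factor NF-kB, while homeostatic ones are made steadily by stroma, lymphatic vessels and mucosal epithelium. Atypical receptors bind chemokines and remove them without signalling through G proteins. In the stomach wall, ligands can come from epithelium, stroma, vessels or leukocytes, while most receptors sit on leukocytes.

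Promoter sequences are shown for 4 ligands that stayed at or under 0.35 FPKM in the controls, were highest in replicate 6 and held a match to the NF-kB motif, and for Cxcl14, the tested member with the largest change. They run from 250 bases before to 50 bases after the start of the gene, are from RefSeq on GRCm38.p6, and have the motif match in capitals. In the NF-kB set the capitals mark GGG, any 2 bases and TTTCC, read on either strand. The promoters of Cxcl1 (chr5:90890995-90891294, plus strand), Cxcl2 (chr5:90903649-90903948, plus strand), Cxcl3 (chr5:90785851-90786150, plus strand) and Ccl20 (chr1:83116516-83116815, plus strand) read as follows.
Cxcl1: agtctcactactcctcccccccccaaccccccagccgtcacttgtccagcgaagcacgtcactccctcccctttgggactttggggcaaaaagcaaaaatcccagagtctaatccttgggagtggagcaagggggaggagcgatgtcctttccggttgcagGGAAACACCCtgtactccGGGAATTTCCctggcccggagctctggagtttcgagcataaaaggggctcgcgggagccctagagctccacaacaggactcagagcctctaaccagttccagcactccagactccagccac
Cxcl2: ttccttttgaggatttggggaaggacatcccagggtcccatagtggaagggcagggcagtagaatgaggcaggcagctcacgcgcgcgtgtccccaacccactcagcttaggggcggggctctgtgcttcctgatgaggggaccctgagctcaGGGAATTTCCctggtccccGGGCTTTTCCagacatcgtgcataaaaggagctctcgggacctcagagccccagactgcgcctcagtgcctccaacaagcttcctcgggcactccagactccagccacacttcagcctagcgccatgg
Cxcl3: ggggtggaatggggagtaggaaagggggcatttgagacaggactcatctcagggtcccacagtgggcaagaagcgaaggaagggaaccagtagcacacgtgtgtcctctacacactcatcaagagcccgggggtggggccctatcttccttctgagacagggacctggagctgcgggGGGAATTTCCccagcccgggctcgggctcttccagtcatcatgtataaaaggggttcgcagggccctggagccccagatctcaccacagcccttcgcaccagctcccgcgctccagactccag
Ccl20: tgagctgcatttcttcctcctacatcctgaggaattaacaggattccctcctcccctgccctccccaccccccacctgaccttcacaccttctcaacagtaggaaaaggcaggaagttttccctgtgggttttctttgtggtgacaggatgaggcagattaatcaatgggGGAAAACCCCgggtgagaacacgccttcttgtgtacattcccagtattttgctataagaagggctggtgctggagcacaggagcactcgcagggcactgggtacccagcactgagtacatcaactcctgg
The promoter of Cxcl14 (chr13:56296502-56296801, minus strand) has in capitals a match to the interferon-stimulated response element (ISRE) motif, which is GAAA, any 2 bases and GAAA.
Cxcl14: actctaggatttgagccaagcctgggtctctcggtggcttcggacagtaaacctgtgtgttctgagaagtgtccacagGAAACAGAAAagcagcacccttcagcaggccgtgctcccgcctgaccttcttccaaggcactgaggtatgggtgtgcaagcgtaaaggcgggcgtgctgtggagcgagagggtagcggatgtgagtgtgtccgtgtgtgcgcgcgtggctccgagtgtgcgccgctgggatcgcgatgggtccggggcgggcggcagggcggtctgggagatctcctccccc
In Cxcl1, Cxcl2 and Cxcl3, which lie together on chromosome 5, the same 10 letters GGGAATTTCC began at bases -71, -97 and -73 counted from the start of the gene. Cxcl1 and Cxcl2 each held another match, at bases -89 and -78. Of 44 members found in the promoter table, 6 (13.6%) held the NF-kB motif on either strand, against 1.90% of 27025 genes with a promoter in the table. The other 2 holders were Ccl9 and Ccr3. The AP-1 motif TGANTCA was in 8 of 44 members (18.2%) against 8.97% of all promoters, the TCF/LEF motif CTTTGA in 10 of 44 (22.7%) against 18.2%, and the ISRE motif in 3 of 44 (6.82%) against 3.99%. The ISRE holders were Ccl19, Cxcl10 and Cxcl14. The 4 motifs were searched on both strands and could overlap, neighbouring paralogs share sequence, and a match is not a binding site.

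Levels are given as FPKM, which correct for gene length and library size and so can be set side by side between genes. Changes are differences of log2(FPKM + 1), PGC;Ras;APC FF minus control. Summed FPKM of all genes lay between 664820 and 804770 per library, and between 11465 and 12407 genes reached 1 FPKM. The chief cell gene Pgc with Clps and Pla2g1b took 34.9% to 48.1% of summed FPKM in the controls and 32.7%, 31.7% and 6.36% in replicates 4, 5 and 6. The 5 tested genes of the chief cell list differed in direction. Pga5 (change 0.70) and Mia (0.35) lay above all controls in replicates 4 to 6. Changes were below 0 for Pgc (-1.80), Bhlha15 (-0.24) and Gif (-0.16). Gif exceeded its highest control (2176.70 FPKM) in replicates 4 (2890.40) and 5 (2381.88). In replicate 6 it was at 557.97, under its lowest control (1270.77). FPKM are shares of a total. The median change of all tested genes was 0.26, and -0.0027 after median-of-ratios scaling, and changes of members are to be read against it. Markers of the corpus were present in every library, with the parietal cell list at 6707 to 7699 summed FPKM in control mice, against 6453 and 5106 in replicates 5 and 4, but 1249 in replicate 6. Replicate 3 read as male (Eif2s3y at 13.15 FPKM, Xist listed at 0) and the other libraries as female (Xist between 3.58 and 6.19 FPKM), so sex was not balanced between the groups. In bulk tissue, fewer cells of a type and less RNA per cell cannot be told apart.

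With all 6 mice, 0 of the chemokine family members passed the test in either direction. In 9 of 25 tested members, among them Cxcl14, Cx3cl1, Cxcl17 and Cxcl16, all 3 PGC;Ras;APC FF mice lay above all controls. Such a lack of overlap was no more frequent among the tested members (36.0%) than among all tested genes (42.7%). The test took genes that reached 1 FPKM in 3 or more of the 6 libraries, which were 25 of the 58 members (21 ligands, 2 conventional and 2 atypical receptors) and 11857 genes in all. By limma with Benjamini-Hochberg adjustment over all tested genes and a threshold of 0.05, 0.11% of tested genes rose (13 genes) and 0.0422% fell (5 genes). After median-of-ratios scaling 9 rose and 10 fell, and after quantile normalization 10 rose and 10 fell, with 0 members among them. The lowest adjusted p of a member was 0.085. At an unadjusted limma p under 0.05, 10 members were higher (40.0%, against 31.8% of all tested genes) and 0 were lower (against 3.63%). With a weight fitted to each library, 10 members passed over all genes and all 10 were higher, in a fit whose weights had not fully converged and that called 29.7% of all tested genes higher.

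The change was above 0 in 20 of 25 tested members (80.0%), against 80.6% of all tested genes, so its sign did not set the family apart. A change of at least 1 was seen in 8 of 25 tested members (32.0%), against 3.63% of all tested genes. These were Cxcl14, Ccl17, Ccl2, Ccl22, Cxcl16, Cx3cl1, Ccl5 and the receptor Cxcr4. Without replicate 6 and with the same genes, only Cxcl14 of the 25 had a change that large, against 1.62% of all tested genes, and without replicate 1 there were 5 such members. The count was 4 after median-of-ratios scaling (Ccl17, Ccl2, Ccl22 and Cxcl14, against 2.11% of all tested genes) and 3 after quantile normalization (Ccl17, Ccl2 and Cxcl14, against 2.05%). A change of -1 or below was seen in 0 members, against 0.548% of all tested genes. The groups were free of overlap with PGC;Ras;APC FF higher in 9 of 25 tested members (36.0%), against 42.7% of all tested genes, and with it lower in 0, against 5.47%. The median change was 0.82 over the 21 tested ligands and 0.46 over the 4 tested receptors. Among the tested members, 9 had passed the filter only with PGC;Ras;APC FF libraries counted, which favours higher values there. The remaining 16 reached 1 FPKM in all 3 controls, a split made after the values were seen, and 5 of these had a change of at least 1, against 2.68% of all genes at that level in the controls. Of these 5 Cxcl14 alone had such a change without replicate 6, and likewise after either scaling, and 3 had it without replicate 1. Their median change was 0.57, against 0.25 for all such genes.

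**Figure D1:**
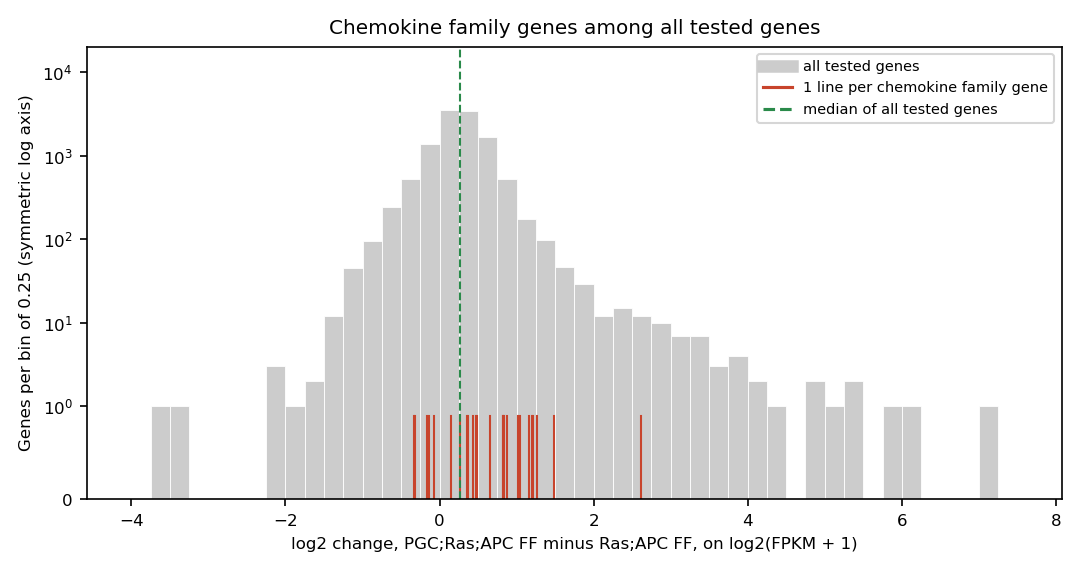
Histogram of the log2 change of all 11857 tested genes (x axis, PGC;Ras;APC FF minus Ras;APC FF on log2(FPKM + 1); y axis, genes per bin on a symmetric log scale), with 1 red line for each of the 25 tested chemokine family genes and the median of all genes, 0.26, as a dashed line. The members run from -0.33 (Ccl21a) to 2.61 (Cxcl14).

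The ligands with the highest levels that also stood apart between the groups were the mucosal chemokines Cxcl17 and Cxcl14 and the membrane-anchored chemokines Cx3cl1 and Cxcl16. Cxcl17 (ENSMUSG00000060188.6, chromosome 7, 25400053 to 25412886, minus strand, GRCm38), a chemokine of mucosal surfaces, was the most abundant member. It was at 92.35, 108.57 and 92.98 FPKM in control mice, and at 141.33, 183.09 and 223.57 in replicates 4, 5 and 6. The groups did not overlap, and replicate 6 was the highest. The means were 98.0 ± 9.19 and 182.7 ± 41.1 FPKM (SD, n = 3 each), a change of 0.87 ± 0.19 (SE) with a limma adjusted p of 0.085.

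Cxcl14 (ENSMUSG00000021508.11, chromosome 13, 56288643 to 56296551, minus strand), a chemokine made steadily by many epithelia, was at 6.05, 6.12 and 4.54 FPKM in controls. It was at 45.88, 16.41 and 76.56 FPKM in replicates 4, 5 and 6, so that even the lowest PGC;Ras;APC FF library lay well above the highest control. Its change, 2.61 ± 0.48 (SE), was the largest among tested members (5.57 ± 0.893 against 46.3 ± 30.1 FPKM, SD, n = 3 each, limma adjusted p = 0.085). By its mean in controls Cxcl14 ranked below Cxcl17, Cxcl12, Ccl21a, Ccl11, Cx3cl1, Cxcl16 and Ccl27a. By its mean in PGC;Ras;APC FF it was second to Cxcl17.

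Cx3cl1 (fractalkine) and Cxcl16 are made as transmembrane proteins with a chemokine head on a mucin stalk, and can be shed. Cx3cl1 (ENSMUSG00000031778.13, chromosome 8, 94772009 to 94782427, plus strand) was at 10.32, 13.42 and 11.53 FPKM in control mice, and at 24.08, 18.89 and 45.04 in replicates 4, 5 and 6. The groups did not overlap, and the change was 1.16 ± 0.29 (SE, limma adjusted p = 0.085). Cxcl16 (ENSMUSG00000018920.11, chromosome 11, 70453983 to 70459984, minus strand) was at 7.70, 7.37 and 13.66 FPKM in control mice, and at 18.62, 14.34 and 41.70 in replicates 4, 5 and 6. Here control replicate 3 at 13.66 came close to replicate 5 at 14.34, and the change was 1.20 ± 0.39 (SE, limma adjusted p = 0.096).

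**Figure D2:**
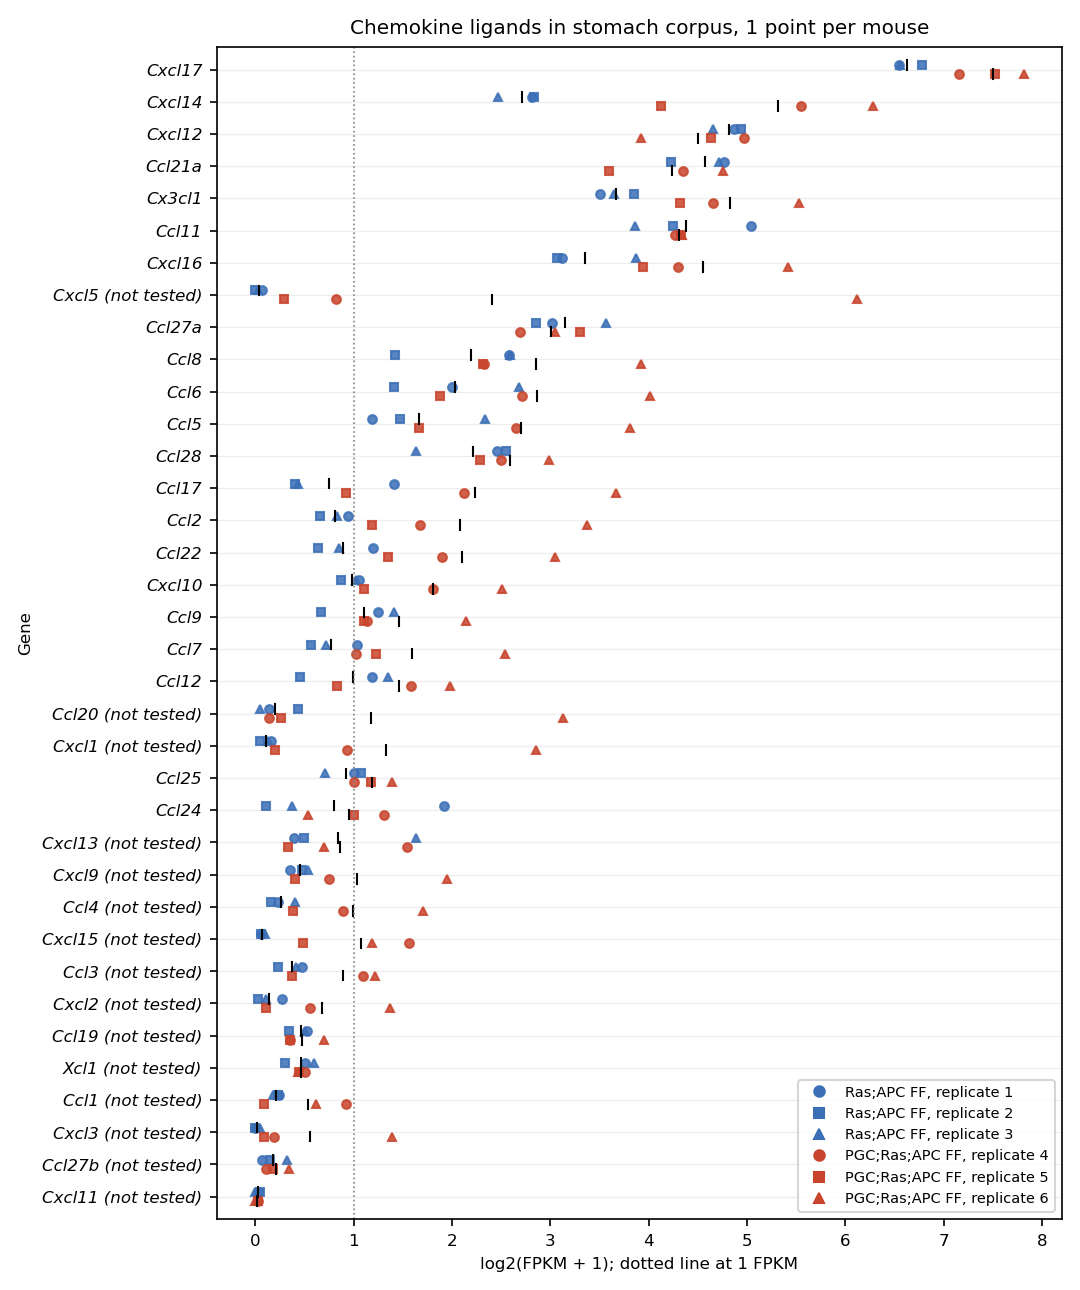
log2(FPKM + 1) of all 36 chemokine ligands (x axis) in 1 point per mouse, controls in blue above and PGC;Ras;APC FF in red below for each gene, with short black lines at the group means and a dotted line at 1 FPKM. Replicate 6 (red triangles) is the highest library for 26 of the 36 ligands, against 57.5% of all rows, and Cxcl5 is near 0 in every control and at 68.26 FPKM in replicate 6.

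When replicate 6 was left out and the same genes were kept, a setting chosen after the data were seen, 3 members passed over all genes and each was higher (12.0% of the tested members, against 8.11% of all tested genes), while 0 were lower (against 0.961%). These were Cxcl14 (change 2.13, limma adjusted p = 0.0279), Cx3cl1 (0.82, limma adjusted p = 0.0308) and Cxcl17 (0.71, limma adjusted p = 0.0380), each higher in 2 of 2 PGC;Ras;APC FF mice. Over all alternative settings the limma adjusted p ran from 0.00153 to 0.246 for Cxcl14, from 0.00443 to 0.246 for Cx3cl1 and from 0.0106 to 0.246 for Cxcl17. When replicate 5 was left out, 5 of the 23 members then tested were called higher (against 3.54% of all genes then tested). These were Cxcl14, Ccl17, Ccl22, Cxcl10 and Cx3cl1. Of them Ccl17, Ccl22 and Cxcl10 passed the filter only with PGC;Ras;APC FF libraries counted, which favours higher values there.

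Cxcl12 and Ccl21a, the homeostatic ligands of stroma and lymphatic vessels, had changes below 0 that did not pass the threshold. Cxcl12 (chromosome 6, 117168535 to 117181367, plus strand), the stromal ligand of Cxcr4 and Ackr3, was at 28.09, 29.71 and 24.09 FPKM in control mice, and at 30.22, 23.73 and 14.10 in replicates 4, 5 and 6. Its groups overlapped and replicate 6 was the lowest library (change -0.31 ± 0.26 SE, limma adjusted p = 0.375). Without replicate 6 its change was -0.021. With all libraries and median-of-ratios scaling it was -0.61 (limma adjusted p = 0.278). Ccl21a (chromosome 4, 42772860 to 42773993, minus strand), a lymphatic ligand of Ccr7, was at 26.20, 17.75 and 25.17 FPKM in control mice, and at 19.35, 11.09 and 26.05 in replicates 4, 5 and 6. The groups overlapped here too (change -0.33 ± 0.30 SE, limma adjusted p = 0.409), with a change of -0.016 without replicate 5 and -0.60 without replicate 6. After median-of-ratios scaling the change of Ccl21a was -0.63 (limma adjusted p = 0.192). Ccl21a and Ccl19 each have a second copy on a scaffold of the assembly and Ccl21 genes have near-identical paralogs, so values of Ccl21a, Ccl19, Ccl27a and Ccl27b are uncertain as single genes.

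Ccl11 (eotaxin, which attracts eosinophils through Ccr3) was at 21.1 ± 9.62 FPKM in control mice, against 18.8 ± 0.527 in replicates 4 to 6 (SD, n = 3 each), and control replicate 1 was highest at 31.94. The change was -0.074, and 0.26 without replicate 1. The other eotaxin, Ccl24, was at 2.77, 0.08 and 0.29 FPKM in control mice, and at 1.47, 1.01 and 0.45 in replicates 4, 5 and 6, so that the controls spanned the whole range of the other group. Ccl27a, a ligand of Ccr10 known from skin, was at 8.05 ± 2.43 and 7.17 ± 1.69 FPKM, and Ccl28, a mucosal ligand of Ccr10, at 3.81 ± 1.48 and 5.14 ± 1.58. Ccl25, the Ccr9 ligand of thymus and small intestine, was at 0.910 ± 0.248 and 1.29 ± 0.301 FPKM. Ccl19 (0.377 ± 0.0929 and 0.393 ± 0.196), Ccl27b (at most 0.27) and Xcl1, the lymphotactin of T and NK cells (0.387 ± 0.143 and 0.377 ± 0.0379), stayed under 1 FPKM in all 6 libraries.

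Ccl17 and Ccl22, both ligands of Ccr4 that dendritic cells are known to make, lie with Cx3cl1 on chromosome 8 between 94745590 and 94812036, and neither passed the test. Ccl22 was at 1.29, 0.55 and 0.80 FPKM in control mice, and at 2.72, 1.55 and 7.29 in replicates 4, 5 and 6, without overlap (change 1.21 ± 0.40 SE, limma adjusted p = 0.0972). Ccl17 was at 1.65, 0.32 and 0.35 FPKM in control mice, and at 3.36, 0.89 and 11.73 in replicates 4, 5 and 6. Replicate 5 lay below control replicate 1, and the change was 1.49 ± 0.63 (SE, limma adjusted p = 0.137). Ccl17 and Ccl22 each reached 1 FPKM in only 1 control, so both could pass the filter only with PGC;Ras;APC FF libraries counted. All 3 genes of this cluster had a change of at least 1, against 3.63% of all tested genes, with a median of 1.21. After median-of-ratios scaling 2 of the 3 did (Ccl17 and Ccl22), and after quantile normalization 1 did (Ccl17). Without replicate 6 and with the same genes 0 of the 3 did (Cx3cl1 0.82, Ccl17 0.77 and Ccl22 0.73). Ccr4 itself did not exceed 0.15 FPKM in any library.

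The ligands that attract monocytes through Ccr2 were low in controls and highest in replicate 6. Ccl2 (chromosome 11, 82035571 to 82037453, plus strand), the main monocyte attractant, was at 0.92, 0.58 and 0.78 FPKM in control mice, and at 2.20, 1.28 and 9.38 in replicates 4, 5 and 6. The groups did not overlap (change 1.27 ± 0.49 SE, limma adjusted p = 0.120), but with no control at 1 FPKM this gene could pass the filter only by being higher in PGC;Ras;APC FF. Ccl7 was at 0.723 ± 0.294 and 2.40 ± 2.10 FPKM and Ccl12 at 1.06 ± 0.614 and 1.90 ± 1.08 (SD, n = 3 each), both with overlapping groups. Ccl8, whose receptor in the mouse is Ccr8, was at 4.99, 1.68 and 5.01 FPKM in control mice, and at 4.00, 3.98 and 14.14 in replicates 4, 5 and 6, so that replicate 6 alone lay above the controls. Without replicate 6 and with the same genes, the changes were 0.62 for Ccl2, 0.35 for Ccl7, 0.21 for Ccl12 and 0.12 for Ccl8.

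Ccl5 and the myeloid and macrophage CC ligands Ccl6, Ccl9, Ccl3 and Ccl4 were likewise highest in replicate 6. Ccl5 (RANTES, made by T cells and others) was at 1.28, 1.77 and 4.05 FPKM in control mice, and at 5.26, 2.16 and 12.97 in replicates 4, 5 and 6. Replicate 5 lay within the controls (change 1.04 ± 0.52 SE, limma adjusted p = 0.184). Ccl6, a myeloid chemokine of rodents, was at 3.36 ± 1.91 and 7.80 ± 6.55 FPKM, and its relative Ccl9 at 1.21 ± 0.551 and 1.92 ± 1.29, with overlapping groups. Ccl3 and Ccl4, made by activated macrophages and T cells, were not tested. Ccl3 peaked at 0.39 FPKM in control mice and was at 1.14, 0.29 and 1.33 in replicates 4, 5 and 6, and Ccl4 peaked at 0.32 and was at 0.86, 0.30 and 2.25.

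The neutrophil-attracting ligands of Cxcr2 lie together on chromosome 5 between 90759360 and 90905938, and 0 of these 5 genes passed the filter on low values. Cxcl5 (ENSMUSG00000029371.7) was at 0.05, 0.00 and 0.02 FPKM in control mice, and at 0.76, 0.22 and 68.26 in replicates 4, 5 and 6. Replicate 6 thus held nearly all of its signal, at a level above Cx3cl1 and Cxcl16 in the same library. Cxcl1 was at 0.12, 0.03 and 0.09 FPKM in control mice, and at 0.91, 0.15 and 6.21 in replicates 4, 5 and 6. Cxcl3 was at 0.00, 0.00 and 0.03 FPKM in control mice, and at 0.14, 0.06 and 1.61 in replicates 4, 5 and 6. These are 2 of the promoters printed above with the NF-kB match at -71 and -73.

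Cxcl2 was at 0.21, 0.02 and 0.08 FPKM in control mice, and at 0.47, 0.08 and 1.58 in replicates 4, 5 and 6, with overlap through replicate 5. Cxcl15 (lungkine, known from lung epithelium) had another order, at 0.04, 0.04 and 0.07 FPKM in control mice, and at 1.95, 0.40 and 1.28 in replicates 4, 5 and 6, so that replicate 4 was the highest. The groups did not overlap in 4 of the 5 genes, with PGC;Ras;APC FF higher. Among the 33 untested members this held for 11, against 13.9% of all 7131 genes under the filter, and the reverse for 0, against 5.95%. With 3 mice in each group the lowest two-sided p of an exact permutation test is 0.1, so no call was made for these genes.

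Ccl20, the ligand of Ccr6 induced in epithelium by inflammatory cytokines, was at 0.10, 0.35 and 0.03 FPKM in control mice, and at 0.10, 0.20 and 7.74 in replicates 4, 5 and 6. Outside replicate 6 it did not differ from the controls beyond their range. Ccl1, a Ccr8 ligand, was at most 0.18 FPKM in control mice, and at 0.89, 0.06 and 0.53 in replicates 4, 5 and 6.

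Interferon-inducible ligands of Cxcr3, the receptor of activated T and NK cells, were low. Cxcl10 was at 1.07, 0.83 and 1.03 FPKM in control mice, and at 2.50, 1.15 and 4.68 in replicates 4, 5 and 6, without overlap but with replicate 5 close to the controls (change 0.82 ± 0.31 SE, limma adjusted p = 0.117). Cxcl9 was at 0.28, 0.39 and 0.45 FPKM in control mice, and at 0.68, 0.32 and 2.85 in replicates 4, 5 and 6. Cxcl11, annotated as a polymorphic pseudogene, did not exceed 0.03 FPKM. Cxcl13, the B cell attractant of lymphoid follicles, was at 0.31, 0.41 and 2.10 FPKM in control mice, and at 1.92, 0.26 and 0.62 in replicates 4, 5 and 6, so that 1 library of each group stood high.

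Receptors were far lower than the leading ligands, and 18 of 22 did not pass the filter. Ackr3, the atypical receptor that removes Cxcl12, was the most abundant, at 3.57, 3.73 and 3.97 FPKM in control mice, and at 5.41, 3.76 and 7.80 in replicates 4, 5 and 6. Replicate 5 lay within the controls (change 0.44 ± 0.22 SE, limma adjusted p = 0.178). Cxcr4, the signalling receptor for Cxcl12, was at 1.39, 1.79 and 1.35 FPKM in control mice, and at 3.37, 1.83 and 9.46 in replicates 4, 5 and 6. Replicate 5 was barely above the highest control, and replicate 6 stood far above (change 1.02 ± 0.42 SE, limma adjusted p = 0.131). Without replicate 6 and with the same genes its change was 0.49.

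Cx3cr1, the fractalkine receptor of monocytes and macrophages, was at 2.32, 1.77 and 2.77 FPKM in control mice, and at 3.57, 2.83 and 4.45 in replicates 4, 5 and 6. The groups did not overlap, with replicate 5 next to control replicate 3 (change 0.49 ± 0.18 SE, limma adjusted p = 0.113). Ackr1, which carries chemokines across venular endothelium, was at 1.77 ± 0.464 and 1.45 ± 0.164 FPKM (SD, n = 3 each), with overlap. The scavenger Ackr2, which takes up inflammatory CC ligands, was at most 0.36 FPKM. Ackr4, which takes up Ccr7 ligands, was at 0.66, 0.86 and 1.90 FPKM in control mice, and at 0.89, 0.40 and 1.11 in replicates 4, 5 and 6.

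Among untested conventional receptors, those of T cells, dendritic cells and monocytes reached the highest values. Ccr7, which leads dendritic and T cells along Ccl19 and Ccl21, was at 0.40, 0.29 and 0.40 FPKM in control mice, and at 1.63, 0.68 and 2.82 in replicates 4, 5 and 6. Cxcr6, the receptor for Cxcl16 on T cells, was at 0.43, 0.34 and 0.68 FPKM in control mice, and at 1.01, 0.84 and 1.84 in replicates 4, 5 and 6. Ccr1 was at 0.40, 0.25 and 0.59 FPKM in control mice, and at 1.20, 0.65 and 2.21 in replicates 4, 5 and 6. None of these 3 genes overlapped between the groups, which held for 7 of the 16 untested conventional receptors, against 13.9% of genes under the filter.

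Cxcr3 (0.283 ± 0.0404 and 0.640 ± 0.348 FPKM) and the neutrophil receptor Cxcr2 (0.0433 ± 0.0321 and 0.367 ± 0.436, with replicate 6 at 0.87) did not overlap either. Ccr2 (0.477 ± 0.186 and 0.820 ± 0.340 FPKM) overlapped between the groups. Ccr10, the receptor for Ccl27 and Ccl28, peaked at 0.86 FPKM in replicate 6. Xcr1, a receptor of cross-presenting dendritic cells, and Ccr8 each stayed at or under 0.33 FPKM, and Ccr9 and Cxcr1 at or under 0.20. Ccr3, Ccr4, Ccr6 and Cxcr5, which mark eosinophils, T cells and B cells among others, were at or under 0.15 FPKM in every library, so that the receptors for Ccl11 and Ccl22 were barely read.

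**Figure D3:**
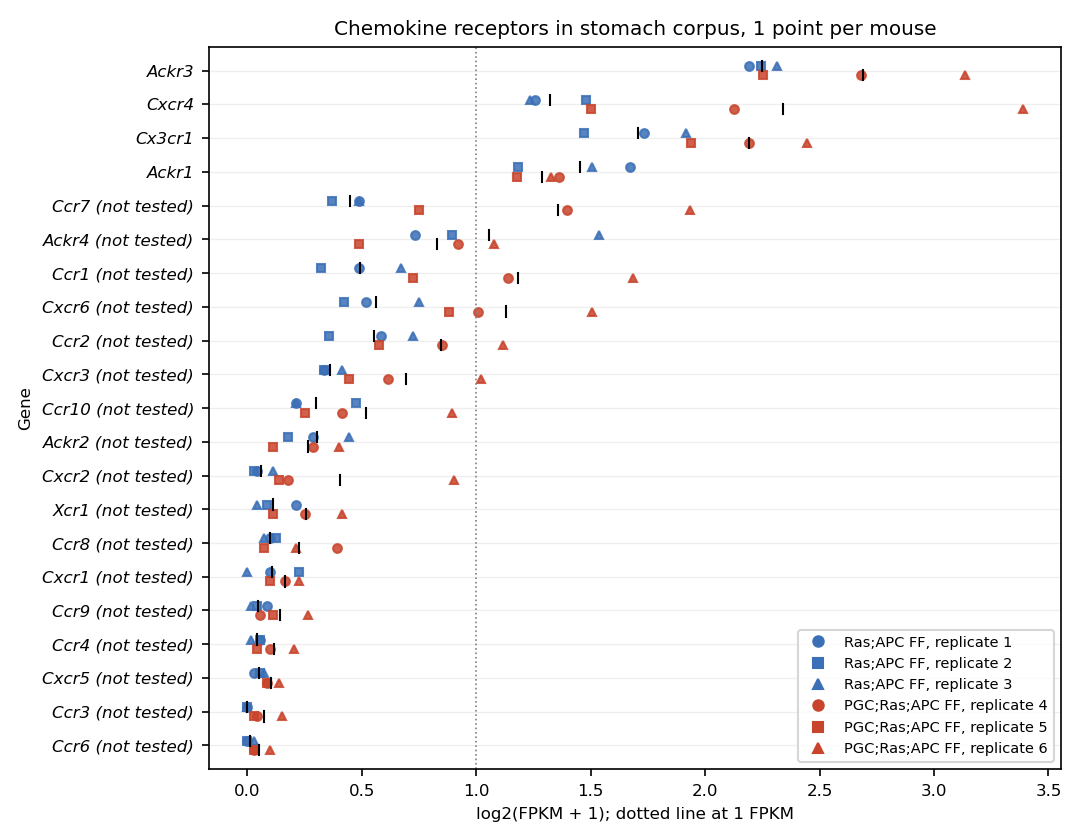
log2(FPKM + 1) of 21 chemokine receptors (x axis) in 1 point per mouse, drawn as for the ligands, with short black lines at the group means and a dotted line at 1 FPKM. Only Ackr3, Cxcr4, Cx3cr1 and Ackr1 passed the filter, and replicate 6 is the highest library for 16 of the 21 receptors, against 57.5% of all rows.

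The 3 PGC;Ras;APC FF mice differed among themselves in the same order for most members. Replicate 6 was above replicate 4 and replicate 4 above replicate 5 in 17 of 25 tested members, against 41.5% of all tested genes. Replicate 6 was the highest of the 6 libraries in 19 of 25 (76.0%), against 68.4% of all tested genes, and in 24 of the 33 untested members, against 39.3% of genes under the filter. Replicate 4 exceeded all 3 controls in 15 of the 25 (56.3% of all tested genes) and replicate 5 in 11 of the 25 (53.3% of all tested genes). The 8 tested members with another order were Cxcl17, Cxcl12, Ccl7, Ccl11, Ccl24, Ccl25, Ccl27a and Ackr1. Leaving out replicate 6 and keeping the same genes, the median change was 0.35 over the tested ligands and 0.29 over the tested receptors, against 0.17 for all tested genes.

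**Figure D4:**
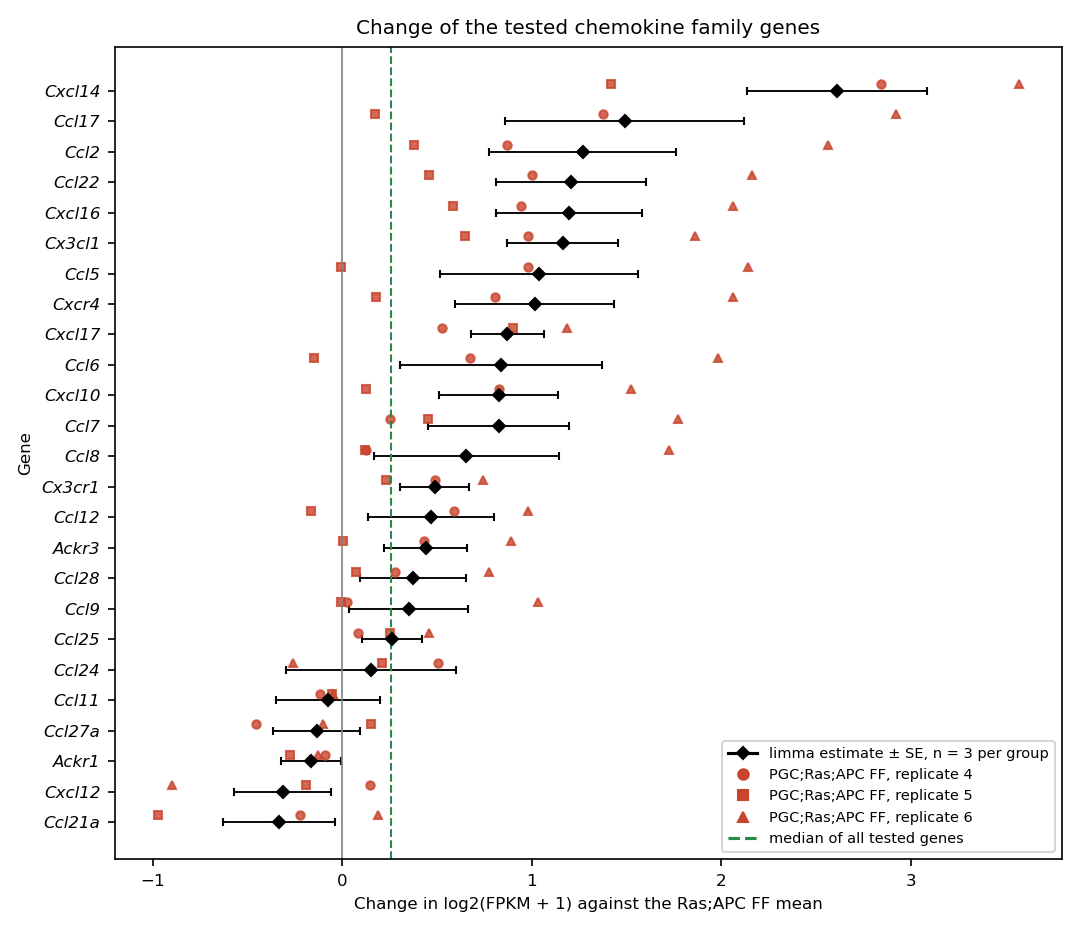
Change in log2(FPKM + 1) against the control mean (x axis) for the 25 tested members, as the limma estimate with its SE (black diamonds and bars, n = 3 per group) and as each PGC;Ras;APC FF mouse (red points), with a dashed line at the median of all tested genes, 0.26. Cxcl14 is above 1 in all 3 mice, while for most other members replicate 6 (triangles) stands apart to the right.

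Genes near the chemokine system were counted in the same fit. Of the 10 tested relatives that the name rule leaves out, 0 passed over all genes, with 4 higher at an unadjusted limma p under 0.05 (40.0%, against 31.8% of all tested genes) and a median change of 0.22, against 0.26. The most abundant were Rarres2 (chemerin), at 62.17, 45.94 and 60.67 FPKM in control mice, against 89.60, 71.85 and 65.65 in replicates 4, 5 and 6, and Cmtm7, at 35.76, 42.76 and 58.79 against 59.50, 63.67 and 93.99. Of 23 tested genes of receptor signalling (G protein subunits, arrestins, receptor kinases, regulators and the Rac pathway), 0 passed, with 10 higher at an unadjusted limma p under 0.05 (43.5%, against 31.8% of all tested genes) and a median change of 0.39. The most abundant were Gng5, a G protein subunit, at 287.8 ± 72.5 and 351.9 ± 51.1 FPKM, and Gnb2, a beta subunit, at 119.9 ± 5.84 and 175.9 ± 42.2 (SD, n = 3 each).

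Cytokines and NF-kB genes upstream of inflammatory chemokines were mostly highest in replicate 6, with Il18 as an exception among the tested ones. Of 19 inducing cytokines 4 were tested and 0 passed, with 3 higher at an unadjusted limma p under 0.05 (31.8% of all tested genes) and a median change of 1.37. The most abundant were the epithelial alarmins Il18 (84.2 ± 15.7 and 96.1 ± 7.94 FPKM) and Il33 (27.5 ± 9.93 and 67.4 ± 27.6). Il17c, Il17f, Il22 and Il4 were listed at 0 in all 3 controls and did not exceed 0.39 FPKM elsewhere. Of 15 tested NF-kB pathway and target genes 0 passed, with 7 higher at an unadjusted limma p under 0.05 (46.7%, against 31.8% of all tested genes) and a median change of 0.56. The most abundant tested members were the neutrophil gelatinase-associated lipocalin Lcn2, at 1.30, 0.64 and 1.49 FPKM in control mice, against 56.73, 13.47 and 291.24 in replicates 4, 5 and 6, and the inhibitor Nfkbia, at 26.13, 26.61 and 26.47 against 27.77, 24.74 and 49.17. Every Lcn2 value in PGC;Ras;APC FF was far above the controls, and Nfkbia stood out in replicate 6 alone.

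Most leukocyte lists had higher sums in PGC;Ras;APC FF, with 0 of their genes past the threshold, and their part in the chemokine values was not tested. The 7 general leukocyte genes summed to 79.4 to 91.0 FPKM in control mice, against 118.0 to 233.8 in PGC;Ras;APC FF, with 6 of 7 higher at an unadjusted limma p under 0.05 (31.8% of all tested genes), Lcp1 at 37.2 ± 2.31 and 39.5 ± 1.26 FPKM, and 7 of 7 highest in replicate 6. T cell markers summed to 3.32 to 3.57 FPKM in control mice, against 5.23 to 17.8 in PGC;Ras;APC FF (9 genes, 9 highest in replicate 6). B and plasma cell markers summed to 21.2 to 33.1 and 49.9 to 174.8 FPKM, most of it Jchain. The B cell gene Cr2 was listed at 0 in all controls and did not exceed 0.02 FPKM elsewhere. Both lists thus had groups that did not overlap, and replicate 5 had the lowest sum of the 3 PGC;Ras;APC FF mice.

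Dendritic cell markers summed to 202.1 to 236.7 FPKM in control mice, against 320.8 to 1413 in PGC;Ras;APC FF, nearly all of it Cd74 and H2-Ab1, which other cells also express. Itgax, the other tested gene of the list, was at 1.23, 0.78 and 0.64 FPKM in control mice, and at 3.07, 1.63 and 6.10 in replicates 4, 5 and 6, without overlap (limma adjusted p = 0.0880). The 6 untested genes stayed at or under 1.21 FPKM, with Clec9a at or under 0.34. They differed in direction, with means of 0.647 and 0.363 FPKM for Cd209a and 0.127 and 0.283 for Flt3. Macrophage and monocyte markers overlapped between the groups, at 130.7 to 220.5 and 183.7 to 560.0 summed FPKM (13 genes, 12 highest in replicate 6). Beside the Cxcr2 ligands, neutrophil markers summed to 0.66 to 4.65 FPKM in controls, 1.08 and 1.95 in replicates 4 and 5, and 190.8 in replicate 6. Of that last sum Ltf, which glandular epithelium also makes, gave 141.44, S100a9 22.65 and S100a8 15.46 FPKM, and Retnlg gave 7.86 and Csf3r 2.86 FPKM, each the highest of the 6 libraries. The defining gene Ly6g, listed at 0 in all controls, was at 0.12 FPKM there, while the granule genes Mpo and Ngp were listed at 0.

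Other leukocyte lists were low or mixed. NK cell markers summed to 0.94 to 1.29 FPKM in control mice, against 1.07 to 12.5 in PGC;Ras;APC FF, with Gzma at 11.19 in replicate 6. Eosinophil markers summed to 1.39 to 2.40 and 2.99 to 8.45 FPKM, beside a Ccl11 level that did not differ beyond the spread of the controls. Ear2, Siglecf and Prg2 gave most of these sums. Ear1 and Ear6 were listed at 0 in all controls and did not exceed 0.08 FPKM elsewhere, and Prg3 and Il5ra did not exceed 0.05 FPKM in any library. Mast cell markers summed to 39.7 to 111.9 and 142.8 to 322.6 FPKM, with replicate 5 highest. Mcpt1 and Mcpt2 gave most of these sums in PGC;Ras;APC FF, and the genes differed in direction in replicate 6. There Cpa3 (1.79 FPKM), Tpsb2 (4.37), Tpsab1 (0.10) and Kit (5.03) lay below every control. The lowest control values of these genes were 2.79, 7.83, 0.13 and 10.37 FPKM. In the same library Mcpt1, Mcpt2, Mcpt4 and Ms4a2 lay above every control, and Fcer1a lay within the control range.

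Stromal lists gave the setting for the homeostatic ligands. Vascular endothelial markers summed to 53.1 to 57.7 FPKM in control mice, against 51.4 to 66.5 in PGC;Ras;APC FF, and lymphatic endothelial markers to 10.1 to 14.4 and 10.9 to 23.1. Within the lymphatic list, whose 4 tested genes had a median change of -0.19, Lyve1 was at 4.06 ± 1.03 and 2.61 ± 0.308 FPKM and Mmrn1 at 1.32 ± 0.354 and 0.777 ± 0.336, while Pdpn was at 5.68 ± 1.19 and 9.67 ± 3.29 (SD, n = 3 each). Beside Ccl21a these genes thus differed in direction, with 0 past the threshold. Fibroblast markers summed to 327.8 to 340.2 and 341.6 to 532.1 FPKM. Smooth muscle markers were lower without overlap, at 2367 to 4203 and 1079 to 1568 FPKM. Of these, 9 of 9 were below at an unadjusted limma p under 0.05, against 3.63% of all tested genes, and 0 passed the threshold. Adipocyte markers were lower too (89.5 to 126.8 and 32.8 to 71.1 FPKM). Of these, 2 of 5 tested fell over all genes, against 0.0422% of all tested genes, namely Cfd and Adipoq (limma adjusted p = 0.00908 and 0.0103).

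**Figure D5:**
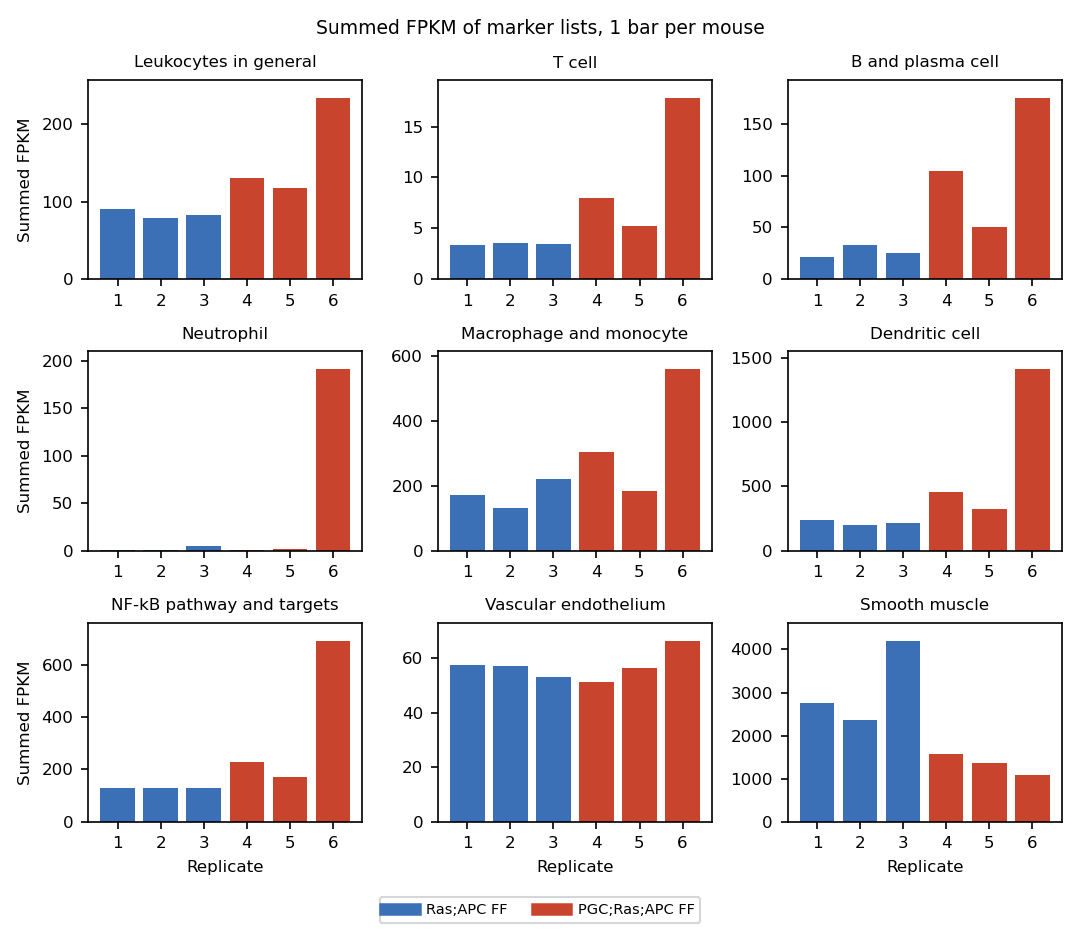
Summed FPKM (y axis, linear from 0, scaled per panel) of 9 gene lists in each of the 6 mice (x axis, replicates), controls in blue and PGC;Ras;APC FF in red. Leukocyte, T cell, B and plasma cell, dendritic cell and NF-kB lists are higher in all 3 PGC;Ras;APC FF mice and highest in replicate 6, the neutrophil list stands out in replicate 6 alone, and smooth muscle is lower in all 3.

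By position, members that lie together differed in how many reached the filter. On chromosome 11 between 82035571 and 82305690, 5 of 6 genes were tested (Ccl2, Ccl7, Ccl8, Ccl11 and Ccl12, with Ccl1 not tested), with a median change of 0.66. In the neighbouring cluster on chromosome 11 between 83525778 and 83664683, 3 of 5 were tested (Ccl5, Ccl6 and Ccl9), with a median of 0.84.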

How the data were processed

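The series holds bulk RNA sequencing of stomach corpus from 6 mice, 3 of each genotype. The authors deposited FPKM with 2 decimals. STAR, featureCounts and the mm10 build were used, per the submitters' processing notes. The sources used here do not give versions, annotation, strandedness or how counts became FPKM, so that reads of antisense or overlapping genes cannot be told apart. Read depth is unknown, and values of a few hundredths of an FPKM are imprecise.

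FPKM are not counts, so log2(FPKM + 1) was fitted by limma (version 3.58.1, with R 4.3.3, a mean-variance trend and genotype as the 1 term, two-sided) over the 11857 genes with at least 1 FPKM in at least 3 of the 6 libraries. Benjamini-Hochberg adjustment ran over these genes, with a threshold of 0.05. Members with a log2 change of at least 1, the 5 most abundant ligands and the 3 most abundant receptors were to be given in every library, and others by mean ± SD or range. Additional library values were chosen after they were seen. Up to 2 most abundant tested genes, or those past the threshold, were named per list, and marker genes beyond these were named after their values were seen. The members and lists were chosen with earlier results of these data known. Genes were matched by symbol to GENCODE M21 (58 of 58, GRCm38) and to RefSeq promoters (44 of 58). Protein sequences were not used here. A receptor that is counted among the members is not reported here. The fit was run on simulated data, with changes placed only in genes of higher level and the same noise in every library. That run cannot speak for low members or for a library that stands apart. Alternatives covered the pseudocount, filter, scaling, limma settings and each library left out.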

Additional observations from a re-analysis of the deposited data

How the results depend on the processing

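No member was called lower under any alternative run, and the count of members called higher was 0 except with library weights (10) and when replicate 5 or 6 was left out (range 0 to 5 over the 6 fits without 1 library, with 3 without replicate 6 and with the genes of the full filter). The library weights had not converged fully. The number of all genes called higher was 13, and became 29 with a pseudocount of 0.1, 3 without a filter, 3523 with library weights, 0 to 832 with 1 library left out, and 962 without replicate 6 on the same genes. The number called lower was 5, and became 10 under median-of-ratios scaling and likewise under quantile normalization, 369 with library weights, 0 to 106 with 1 library left out, and 114 without replicate 6 on the same genes. Rises were 72.2% of all calls on the FPKM scale and 47.4% under median-of-ratios scaling, while quantile normalization gave 10 rises and 10 falls. The median change of ligands ran from 0.26 to 0.92 and that of receptors from 0.29 to 0.64 with 1 library left out, and the receptor median was 0.18 without a filter, where more low genes enter. After median-of-ratios scaling the medians were 0.56 and 0.22. Signs of 4 members turned: Cxcl12 (0.00047 with library weights), Ccl11 (0.26 without replicate 1), Ccl24 (-0.19 and -0.064 without replicates 2 and 3) and Ccl27a (0.073 and 0.025 without replicates 3 and 4). With 1 library left out, Ccl11 ran from -0.34 to 0.26, Ccl27a from -0.28 to 0.073 and Ccl24 from -0.19 to 0.36. For each, the cause was not tested. Without replicate 3, which leaves libraries that read as female, 0 members passed, as in the fits without replicate 1 or 2. No paired analysis was possible because the groups share no replicate numbers. Unknown depth limits what can be said of members under 1 FPKM.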
